A study of Mus musculus with 18 samples.

Results

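Transcript levels of 9 genes for myeloid differentiation transcription factors (Spi1, Cebpa, Cebpb, Cebpd, Cebpe, Irf8, Klf4, Gfi1 and Runx1) were examined in mouse hematopoietic progenitor lines with an inducible deletion of Ddx41, which encodes an RNA helicase of the DEAD-box family. The genes were listed by name, with earlier results of these data known, from the 24062 genes of the count table, and all 9 were among the 12859 genes that passed the filter on low counts. The lines were derived from lineage-negative bone marrow of Ddx41-floxed mice by transduction with a retrovirus carrying MLL-AF9, a leukemia fusion gene, and every line carried Rosa-CreERT, a Cre recombinase that 4-hydroxytamoxifen (4OHT) activates. The genotypes were +/+ (WT), +/flox (Het) and flox/flox (FF). Each was treated for 48 h with 1 µM 4OHT or with ethanol (EtOH), which gave 6 groups (WT_EtOH, WT_4OHT, Het_EtOH, Het_4OHT, FF_EtOH and FF_4OHT) of 3 libraries each, lettered A to C. All cells, controls included, carried MLL-AF9 and were grown with the cytokines SCF and IL-3 of mouse and IL-6 of human origin. The labels do not say how many lines or clones stand behind a genotype, so genotype and line cannot be told apart, nor that the letters are separate cultures, so that p-values measure only the spread between these libraries.

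PU.1, encoded by Spi1, and the C/EBP proteins are the factors that open and activate most enhancers of granulocytes and monocytes, and MLL-AF9 holds cells at a stage that resembles their common progenitor. From that stage C/EBPα and then C/EBPε direct granulocyte maturation, GFI1 represses monocyte genes, and IRF8 and KLF4 direct monocyte development, while RUNX1 acts earlier and sets up Spi1 expression. C/EBPβ and C/EBPδ share the DNA-binding motif of C/EBPα and are induced by cytokines and inflammatory signals.

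Library totals ranged from 24730213 to 49277884 counts. Ddx41 itself averaged 89.2 CPM (counts scaled to library size with TMM factors) in FF_EtOH and 16.3 CPM in FF_4OHT, against 72.8 and 47.6 CPM in Het and 83.8 and 85.7 CPM in WT. The log2 change was -2.45 ± 0.17 (SE) in FF (edgeR adjusted p = 8.09e-07) and -0.61 ± 0.16 in Het, where the groups did not overlap but the test did not pass (adjusted p = 0.860). Several libraries went against their labels or stood apart. The Y-linked gene Eif2s3y had 0 counts in 5 of the 6 FF libraries but 2274 in the library labelled FF_EtOH C, and at least 2247 counts in 5 of the 6 WT libraries but 0 in the library labelled WT_4OHT C. On an axis over all genes from the other WT libraries (0) to the other FF libraries (1), FF_EtOH C lay at 0.0289 and WT_4OHT C at 0.867. The 6 Het libraries lay at 0.852 to 0.977, so that this axis does not separate FF from Het. Tgm2, which was at 219.7 to 709 CPM in 8 of the 9 ethanol libraries, reached only 25.4 CPM in WT_EtOH C, and it was at 14.2 to 45.1 CPM in all 4OHT libraries except WT_4OHT C (479.9 CPM). Het_4OHT A had the largest excess of GC-rich transcripts, at 0.297 log2 units over all libraries for the 1224 genes of highest GC content. The ribosomal RNA gene Rn45s was at 14895, 18286 and 41160 CPM in Het_4OHT A, FF_4OHT B and FF_4OHT C and at 1964 to 6594 CPM in all others, and its part in the results was not tested. Many results that rest on these libraries are given with and without them, but for some genes outside the 9 only values with them are given. The blood-cell marker Ptprc was at 227 to 439.8 CPM and Kit, a progenitor receptor, at 56.9 to 122 CPM. Cd34 was at most 4.93 CPM and Flt3 at most 6.54 CPM in any library. The globin genes Hba-a1, Hbb-bt and Hbb-bs and the T-cell genes Cd3e and Cd3g had 0 counts in all 18 libraries. Summed mast cell and basophil markers lay between 16.9 and 33.8 CPM in all groups. Summed stromal markers were at 14.4 to 25.6 CPM in Het and at 1.74 to 7.58 CPM in WT and FF. That difference came with Pdgfrb (up to 25.0 CPM), while Cxcl12 was at most 0.271 CPM and Col1a1 at most 1.71 CPM. The other marker, Lepr, was at 0.0964 to 5.05 CPM over all libraries. Pdgfrb was the only 1 of the 4 stromal genes with a mean above 1 CPM in Het_EtOH and in Het_4OHT, so Lepr was not raised with it. In bulk RNA, fewer cells of a type and less RNA per cell cannot be told apart.

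The upstream sequences of 3 genes are printed because Cebpa and Cebpb, which encode proteins for the same DNA motif, differed in opposite directions between lines, and because Klf4 was the member whose level changed with 4OHT in FF cells. They are the 250 bases before the RefSeq start on the GRCm38.p6 assembly, 5′ to 3′ on the gene's strand. They lie at chr7:35119043-35119292 (plus strand) for Cebpa, chr2:167688665-167688914 (plus strand) for Cebpb and chr4:55532476-55532725 (minus strand) for Klf4. Capitals mark matches on either strand to any of 7 short motifs. For the ETS family, to which PU.1 belongs, the letters searched were GAGGAA. The C/EBP motif was searched as TTGCNNAA, the motif shared by the dimers of that family. For RUNX factors the core letters were TGTGGT. The KLF family was represented by the short run CACCC, as found in many promoters. The GFI1 core was searched as AATCNNTG. The TATA box, a core promoter element, was TATAAA, and the IRF element is given by its name alone.
Cebpa: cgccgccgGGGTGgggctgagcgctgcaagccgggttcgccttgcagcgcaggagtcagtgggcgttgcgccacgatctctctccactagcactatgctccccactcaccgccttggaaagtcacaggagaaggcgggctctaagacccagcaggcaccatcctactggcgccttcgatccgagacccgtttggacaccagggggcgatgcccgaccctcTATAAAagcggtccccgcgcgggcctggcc
Cebpb: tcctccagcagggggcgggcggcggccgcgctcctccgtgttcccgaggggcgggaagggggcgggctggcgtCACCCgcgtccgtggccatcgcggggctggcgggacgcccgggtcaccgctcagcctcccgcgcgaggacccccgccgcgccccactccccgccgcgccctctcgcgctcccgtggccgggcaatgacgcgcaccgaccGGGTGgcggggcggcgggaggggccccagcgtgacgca
Klf4: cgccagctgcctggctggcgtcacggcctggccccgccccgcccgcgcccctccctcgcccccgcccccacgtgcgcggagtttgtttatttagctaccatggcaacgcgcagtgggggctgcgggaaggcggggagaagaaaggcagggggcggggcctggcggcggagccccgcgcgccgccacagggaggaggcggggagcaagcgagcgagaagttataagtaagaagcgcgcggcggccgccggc
The Cebpa window held 1 KLF match and 1 TATA match, the Cebpb window held 2 KLF matches, and the Klf4 window held no match. No matches overlapped in these windows. Over windows of the same length before 32851 RefSeq starts, 52.0% held a KLF match, 12.4% a TATA match, 23.3% an ETS match, 9.6% a C/EBP match, 14.0% a RUNX match, 8.5% a GFI1 match and 3.0% an IRF match. The windows were GC-rich, at 66.4% for Cebpa, 81.6% for Cebpb and 74.0% for Klf4, against a median of 52.4% over all starts. Promoter sequence was matched for 6 of the 9 members. Among the others of these, Irf8 had a TATA match at 1 of its starts, Gfi1 had 1 C/EBP and 2 KLF matches at 1 start, and Runx1 had 1 ETS and 2 KLF matches at 1 start. A match is a description of letters and not of binding.

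Levels of different genes were compared per kb of annotated exon. In WT_EtOH the most abundant members per kb were Spi1 (104 ± 19.6 CPM per kb, SD, n = 3), Gfi1 (102 ± 15.2) and Cebpb (102 ± 50.1), whose libraries overlapped. Cebpe, which drives late granulocyte maturation, followed at 77.3 ± 15.2 CPM per kb and overlapped Cebpb. Cebpa, Cebpd, Irf8, Runx1 and Klf4 came below them without overlap between neighbours, at 36.1, 20.1, 13.1, 4.49 and 2.51 CPM per kb. In FF_EtOH the order of the 9 genes was the same, with Cebpe and Cebpa overlapping. In Het_EtOH the order was another: Cebpa stood highest at 80.9 ± 13.5 CPM per kb and overlapped Gfi1 (75.2 ± 17.1), and Spi1 (51.8 ± 2.45) and Cebpb (49.7 ± 2.06) came below both. Irf8 stood above Cebpd in Het_EtOH, with overlap. Klf4 was the lowest of the 9 in all 6 groups, and in WT_4OHT its libraries overlapped those of Runx1.

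**Figure D1:**
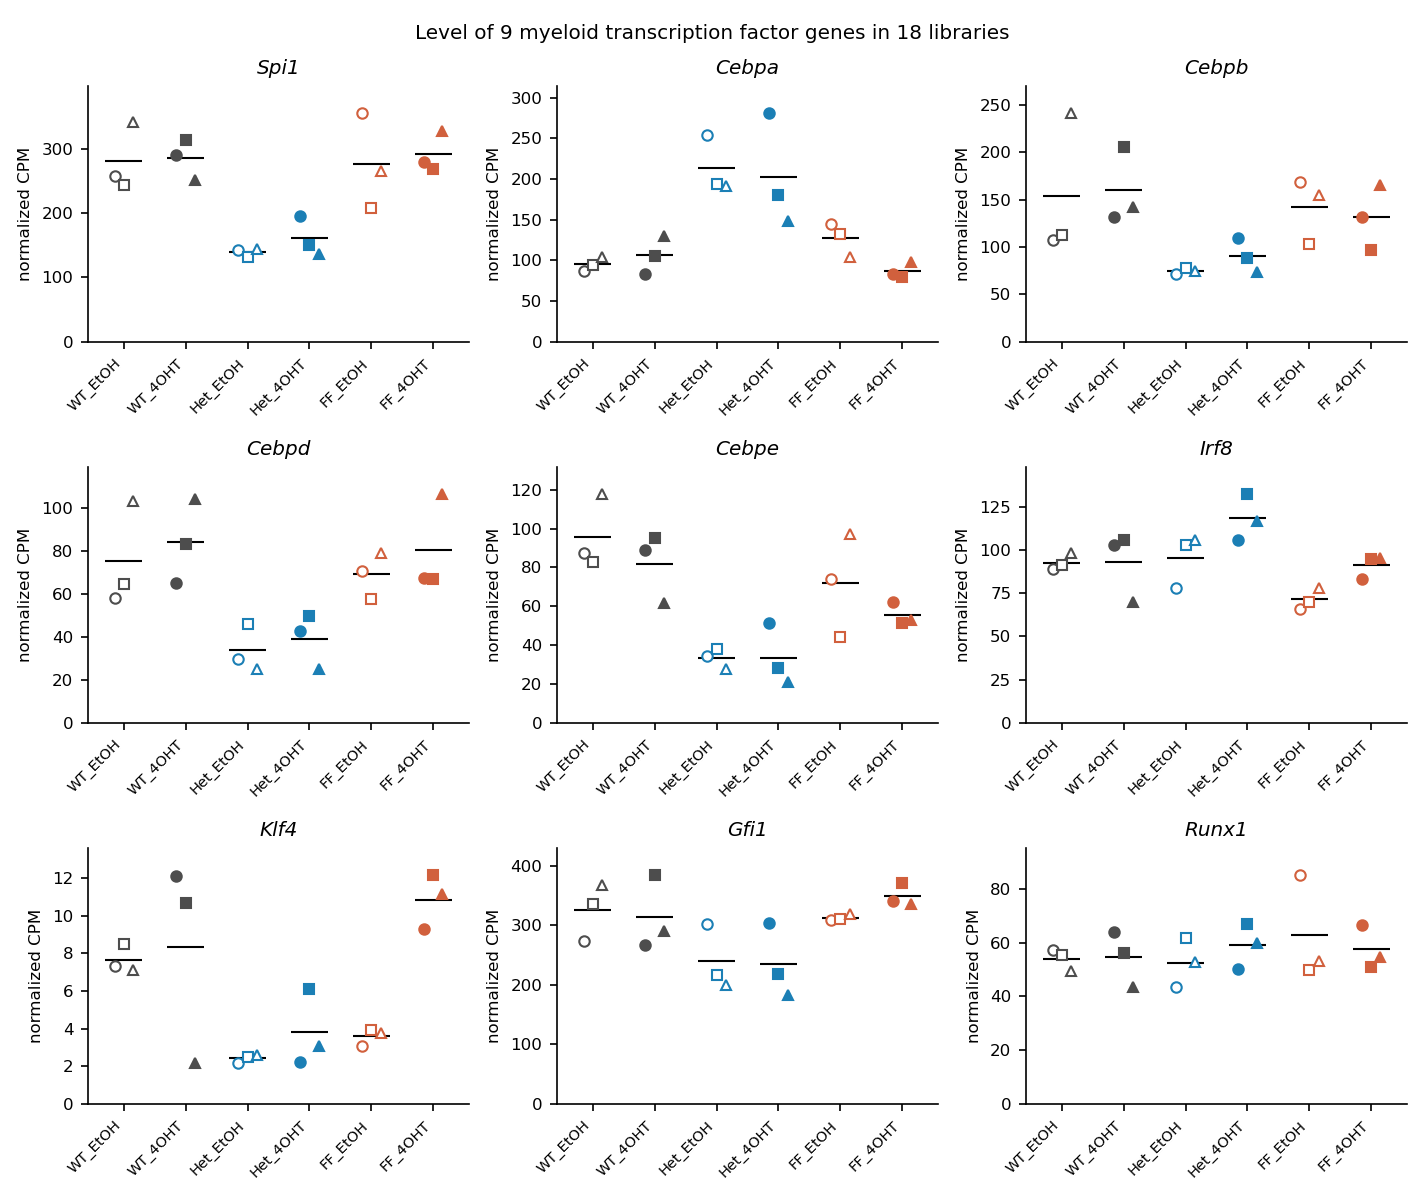
Normalized CPM (vertical axis, from 0, a separate scale for each gene) of the 9 genes in each of 18 libraries, by group (horizontal axis). Circles, squares and triangles are libraries A, B and C, open symbols are ethanol, filled symbols are 4OHT, and bars are group means; Spi1 and Cebpe lie lower and Cebpa higher in Het than in WT, and Klf4 rises from 3.06-3.94 to 9.27-12.2 CPM in FF.

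Between lines, the members differed most where Het cells were involved. In ethanol, 6 of 9 members passed the threshold between Het and WT (edgeR quasi-likelihood test, Benjamini-Hochberg adjusted p under 0.05), against 23.7% of all tested genes. Cebpa was higher in Het, while Spi1, Cebpb, Cebpd, Cebpe and Klf4 were lower. The median log2 difference of the 9 genes was -1.01, and that of all tested genes was -0.03. Without FF_EtOH C, WT_4OHT C and WT_EtOH C, Cebpb and Cebpd did not pass (edgeR adjusted p = 0.175 and 0.0729). That left Cebpa, Spi1, Cebpe and Klf4, against 23.2% of all genes called in that fit. In 4OHT, which uses other libraries of the same lines, 4 of 9 passed between Het and WT, against 15.5% of all tested genes: Cebpa was higher, and Spi1, Cebpd and Cebpe were lower. Between FF and Het in ethanol, 5 of 9 passed, against 16.8%, with Spi1, Cebpb, Cebpd and Cebpe higher in FF and Cebpa lower. Without FF_EtOH C and WT_4OHT C it was 2 of 9 (Spi1 and Irf8), near the 15.7% of all genes called in that fit. Between FF and Het in 4OHT, 5 of 9 passed, against 27.9%, with Spi1, Cebpd, Klf4 and Gfi1 higher in FF and Cebpa lower. In fits to the compared groups alone, Cebpa, Cebpd and Cebpe no longer passed between Het and WT in 4OHT, which left Spi1, and Cebpd and Gfi1 no longer passed between FF and Het in 4OHT. All genes called also fell in those fits, from 1989 to 619 for Het against WT and from 3588 to 2238 for FF against Het. The comparisons with Het share the Het libraries, so that they are not independent of each other.

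Between FF and WT in ethanol, 0 of 9 members passed, as did 0 of all tested genes (0%). At an unadjusted p under 0.05, 2 members (Irf8 and Klf4) and 5.5% of all genes passed, and DESeq2 called 0 members and 21 genes. Of the libraries that lay with the other line, this comparison holds FF_EtOH C, while WT_4OHT C enters only through the fit shared by all groups. Over all genes it gave 1 without FF_EtOH C alone and 50 without WT_4OHT C alone. Without FF_EtOH C and WT_4OHT C it gave 614 genes (4.71%) and again 0 members. Without Het_4OHT A as well it gave 981 genes (7.55%) and 2 members, Cebpa (log2 0.56, edgeR adjusted p = 0.0385) and Klf4 (-1.10, adjusted p = 0.0170). Between FF and WT in 4OHT, 0 of 9 members passed, against 13.1% of all tested genes, with 0 members but 28.6% of all genes at an unadjusted p under 0.05, and 0 members by DESeq2. Without FF_EtOH C, WT_4OHT C and Het_4OHT A, 1 of 9 members, Cebpe, passed that comparison (log2 -0.72, edgeR adjusted p = 0.0240). The share of all genes called in that fit was 24.8%.

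In the response to 4OHT, 1 of 9 members, Klf4, passed in FF, against 13.4% of all tested genes. The median log2 change of the 9 genes was 0.08, and that of all tested genes was -0.02. At an unadjusted p under 0.05, 3 members (Cebpa, Irf8 and Klf4) and 28.1% of all genes passed. The FF groups did not overlap for 4 of 9 members (Cebpa, Irf8, Klf4 and Gfi1), a share near the 40.2% of all genes without overlap there. In Het, 0 of 9 members passed, against 0.0156% of all tested genes, and in WT 0 of 9 passed, against 0%. In both of these lines 0 members had an unadjusted p under 0.05 and DESeq2 called 0 members, while 1.91% of all genes in Het and 2.14% in WT had an unadjusted p under 0.05. Differences between the responses were tested as interactions. They called 0 of 9 members for FF minus WT (2.3% of all genes), 0 for FF minus Het (2.5%) and 0 for Het minus WT (0%), and DESeq2 called 0 members in each. At an unadjusted p under 0.05, 2 members (Cebpa and Klf4) passed for FF minus WT, and 0 passed for the other interactions. The shares of all genes at that p were 15.3% for FF minus WT, 16.3% for FF minus Het and 1.81% for Het minus WT. Over all genes DESeq2 called 4 in the WT response and 4 for Het minus WT.

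**Figure D2:**
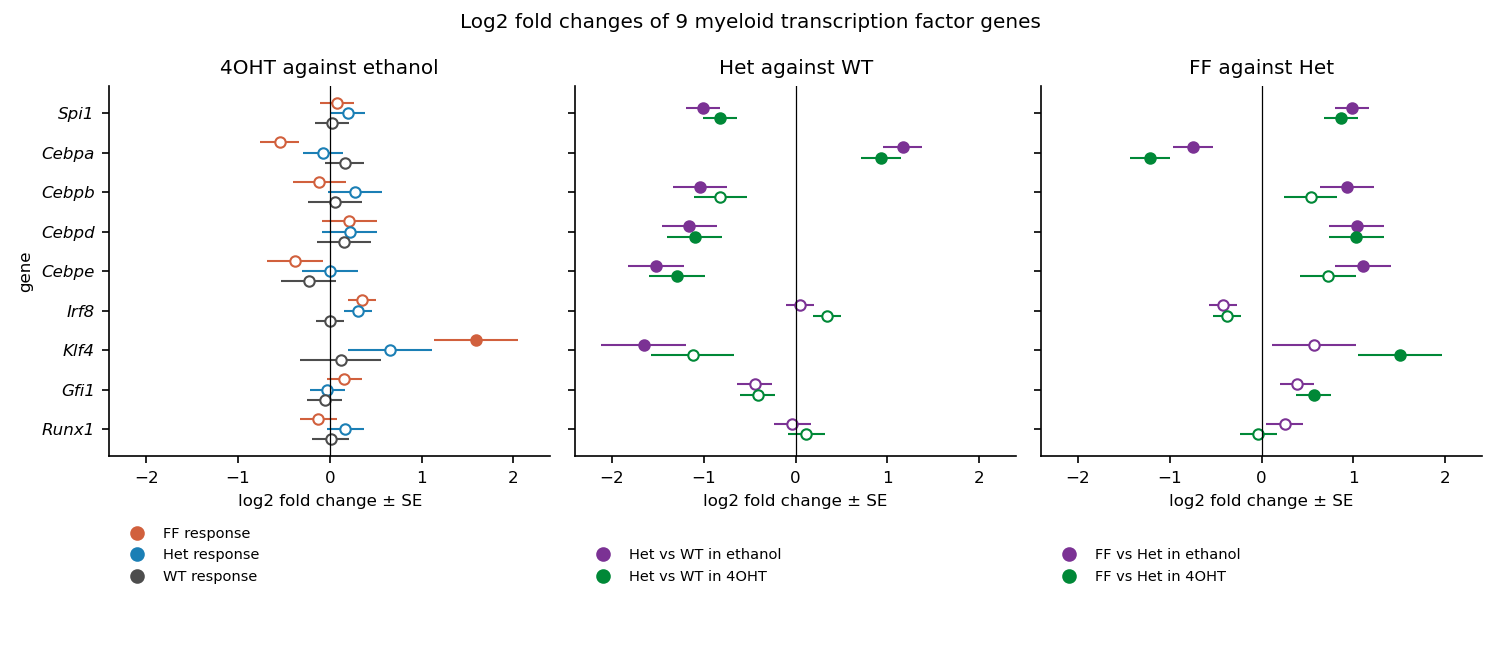
Log2 fold change (horizontal axis) with its standard error (lines) for each of the 9 genes (vertical axis) in the response to 4OHT by line, in Het against WT and in FF against Het. Filled points passed an adjusted p of 0.05 in edgeR and open points did not; Klf4 is the only filled point of the responses, and Cebpa lies opposite to Spi1, Cebpb, Cebpd and Cebpe in both panels that compare lines.

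Spi1 (chr2:91082390-91115756, plus strand, GRCm38, protein coding) encodes PU.1, the ETS factor that both granulocytes and monocytes need. In ethanol its libraries A, B and C were at 258, 244 and 341 CPM in WT, 143, 132 and 144 CPM in Het and 355, 207 and 266 CPM in FF. All Het libraries lay below all WT and FF libraries. The Het mean was 49.7% of the WT mean (log2 -1.01 ± 0.19 SE, edgeR adjusted p = 0.000921), and FF stood above Het by log2 0.98 ± 0.19 (adjusted p = 0.00164). In 4OHT the libraries were at 290.1, 314 and 252 CPM in WT, 196, 150.3 and 136 CPM in Het and 279, 269 and 327 CPM in FF, again with no overlap between Het and the others. Het was lower than WT (log2 -0.83 ± 0.19, edgeR adjusted p = 0.00562). Without the libraries labelled FF_EtOH C, WT_4OHT C and WT_EtOH C the ethanol difference between Het and WT was log2 -0.79 (adjusted p = 0.00835), and it passed in each of 18 fits that left out 1 library. The log2 responses to 4OHT were 0.08 ± 0.18 in FF, 0.20 ± 0.18 in Het and 0.02 ± 0.18 in WT, none of them past the threshold.

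Cebpa (chr7:35119293-35121928, plus strand, a gene of 1 exon) encodes C/EBPα, which progenitors need to enter the granulocyte-monocyte lineage. In ethanol its libraries A, B and C were at 86.7, 95.0 and 104 CPM in WT, 254, 194 and 192 CPM in Het and 145, 133 and 104 CPM in FF. The Het libraries lay above all others. The Het mean was 224% of the WT mean (log2 1.16 ± 0.22, edgeR adjusted p = 0.00102), and the FF mean was 59.6% of the Het mean (log2 -0.75 ± 0.22, adjusted p = 0.0253). The difference between FF and Het did not pass without FF_EtOH C and WT_4OHT C (log2 -0.62, edgeR adjusted p = 0.0779), nor without FF_EtOH B, FF_EtOH C or Het_EtOH A alone (0.0516, 0.100 and 0.112). In 4OHT the libraries were at 83.1, 106 and 131 CPM in WT, 280.5, 180.0 and 148 CPM in Het and 83.5, 79.4 and 98.4 CPM in FF. Het stood above WT (log2 0.93 ± 0.22, edgeR adjusted p = 0.00736) and FF stood below Het (log2 -1.22 ± 0.22, adjusted p = 0.000652), with no overlap in either case. In a fit to the compared groups alone the difference between Het and WT in 4OHT did not pass (adjusted p = 0.112).

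The Cebpa level in FF was 127 ± 20.9 CPM in ethanol and 87.1 ± 9.99 CPM in 4OHT, and the libraries of these groups did not overlap. The log2 response was -0.55 ± 0.22 and missed the threshold over all genes (edgeR adjusted p = 0.106). It passed with the letters as a replicate block within Het (adjusted p = 0.0348) and without Het_4OHT A (adjusted p = 0.0341), and without FF_EtOH C, WT_4OHT C and Het_4OHT A it was -0.67 (adjusted p = 0.00821). It did not pass without FF_EtOH C and WT_4OHT C (-0.67, adjusted p = 0.0615), nor without WT_EtOH C as well (0.0594). The FF response holds no Het library, so that the Het block and Het_4OHT A act on it only through the fit shared by all groups. The responses were -0.07 ± 0.21 in Het and 0.16 ± 0.21 in WT. The difference between the FF and WT responses was log2 -0.71 ± 0.30 and did not pass (edgeR adjusted p = 0.274).

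Cebpb (chr2:167688915-167690418, plus strand, 1 exon) encodes C/EBPβ, which is known for emergency granulopoiesis and macrophage genes. Its libraries A, B and C in ethanol were at 107, 113 and 241 CPM in WT, 71.6, 77.7 and 75.1 CPM in Het and 169, 103 and 155 CPM in FF. Het lay below all others, and WT_EtOH C lay far above its group. The Het mean was 48.7% of the WT mean (log2 -1.04 ± 0.29, edgeR adjusted p = 0.0162). Without WT_EtOH C the difference was log2 -0.51 (adjusted p = 0.165), and it also did not pass without Het_EtOH A (adjusted p = 0.0575) or without Het_EtOH B (adjusted p = 0.0534). FF exceeded Het in ethanol by log2 0.93 ± 0.29 (edgeR adjusted p = 0.0395). That call was lost without FF_EtOH C and WT_4OHT C (adjusted p = 0.0962), without a count filter (0.0538), with a filter of 5 CPM (0.0589) and with scaling by library size (0.0718). It was also lost without any of FF_EtOH A, FF_EtOH C, FF_4OHT A or the 3 Het_EtOH libraries (adjusted p = 0.0509 to 0.142). In 4OHT the levels were 132, 206 and 142 CPM in WT, 109.9, 87.9 and 74.1 CPM in Het and 131, 97.0 and 166 CPM in FF. There Het was below WT without overlap, with log2 -0.82 ± 0.29 and an edgeR adjusted p of 0.0706, which passed by DESeq2 (adjusted p = 0.0401), without WT_EtOH C (0.0225) and without Het_4OHT A (0.0479). Cebpb exons have a GC content of 67.2%, the 99.9th percentile of tested genes, and WT_EtOH C carried an excess of 0.193 log2 units for GC-rich transcripts. Cebpa, Cebpe and Gfi1 were also GC-rich, at 61.2%, 61.5% and 57.9% (percentiles 98.05, 98.24 and 90.28). Each was highest of its group in Het_4OHT A, which had an excess of 0.297 log2 units for GC-rich transcripts. The part of GC content in the results for these genes and Cebpb was not tested.

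Cebpd (chr16:15887286-15891031, plus strand, 1 exon) encodes C/EBPδ, a relative induced by inflammatory signals. In ethanol its libraries A, B and C were at 58.2, 64.3 and 103 CPM in WT, 29.8, 46.1 and 25.2 CPM in Het and 70.7, 57.5 and 79.0 CPM in FF. Het was lowest, without overlap, and the difference to WT was log2 -1.16 ± 0.30 (edgeR adjusted p = 0.00982). Without WT_EtOH C it was -0.81 (adjusted p = 0.0777), and without Het_EtOH C it was -0.99 (adjusted p = 0.0511). In 4OHT the levels were 64.9, 82.9 and 104 CPM in WT, 42.7, 49.8 and 24.9 CPM in Het and 67.5, 66.9 and 106 CPM in FF. The groups kept the same order of Het below the others, with log2 -1.10 ± 0.30 to WT (edgeR adjusted p = 0.0184) and 1.03 ± 0.30 for FF over Het (adjusted p = 0.0172). The former was not called without FF_EtOH C and WT_4OHT C (log2 -0.92, adjusted p = 0.0601), and neither was the ethanol difference of FF over Het, which went from 1.04 ± 0.30 (adjusted p = 0.0256) to 0.93 (adjusted p = 0.0677). Among fits without 1 library, the ethanol difference of FF over Het was lost without FF_EtOH A, FF_EtOH C, Het_EtOH A or Het_EtOH C (adjusted p up to 0.109). In 4OHT, Het against WT was lost without WT_4OHT B, WT_4OHT C or Het_4OHT C (up to 0.0808), and FF over Het without FF_4OHT C or Het_4OHT C (up to 0.0930). The log2 responses to 4OHT lay between 0.16 and 0.22 in the 3 lines, and none passed.

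Cebpe (chr14:54710360-54712174, minus strand) encodes C/EBPε, which activates the genes of secondary granules. Of the C/EBP genes it had the largest difference between Het and WT in ethanol. In ethanol its libraries A, B and C were at 87.3, 82.9 and 118 CPM in WT, 34.4, 37.9 and 28.0 CPM in Het and 74.3, 44.3 and 97.3 CPM in FF. The Het libraries did not reach any WT or FF library. The Het mean was 34.9% of the WT mean (log2 -1.52 ± 0.31, edgeR adjusted p = 0.00181), a call made in each of 18 fits that left out 1 library, with log2 values from -1.62 to -1.29. In 4OHT the levels were 89.1, 95.1 and 61.8 CPM in WT, 51.5, 28.2 and 21.0 CPM in Het and 62.1, 51.2 and 52.8 CPM in FF. Het was again below WT (log2 -1.29 ± 0.31, edgeR adjusted p = 0.00825). FF exceeded Het in ethanol by log2 1.10 ± 0.30 (edgeR adjusted p = 0.0202), and by 0.82 without FF_EtOH C and WT_4OHT C (adjusted p = 0.0788). That call was also lost without FF_EtOH A, FF_EtOH C, Het_EtOH A or Het_EtOH C (adjusted p = 0.0523 to 0.0974). In 4OHT, where Het_4OHT A overlapped the FF libraries, it was 0.72 ± 0.30 (adjusted p = 0.0873), 0.81 with the replicate block within Het (adjusted p = 0.0321) and 1.17 without Het_4OHT A (adjusted p = 0.00604). The p-value with the block can be too small, as the block leaves out the spread between Het letters. In FF the mean went from 71.9 ± 26.6 to 55.4 ± 5.87 CPM with 4OHT, with overlap, and the response was log2 -0.38 ± 0.30 (adjusted p = 0.450) and -0.10 without FF_EtOH C and WT_4OHT C.

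Because Cebpa moved against its relatives, the make-up of the 4 C/EBP transcripts was set out per kb of exon, as a description with no test. Of their summed level, Cebpa made up 17.3%, 18.5% and 12.3% in WT_EtOH libraries A, B and C, 53.7%, 43.7% and 47.9% in Het_EtOH, and 22.3%, 29.6% and 16.3% in FF_EtOH. Every Het library, at 42.0% to 53.7%, lay above every WT and FF library, at 12.3% to 29.6%. The Cebpe share was 33.6% ± 3.81 in WT_EtOH, 16.2% ± 1.79 in Het_EtOH and 25.9% ± 5.86 in FF_EtOH. Cebpb held the largest share in every WT and FF library, at 37.6% to 50.5%, and held 26.5% to 38.2% in Het. The ratio of Cebpa to Spi1 per kb was 0.351 ± 0.0441 in WT_EtOH, 1.56 ± 0.237 in Het_EtOH and 0.490 ± 0.142 in FF_EtOH. In 4OHT it was 0.389 ± 0.125, 1.27 ± 0.180 and 0.305 ± 0.00276 for WT, Het and FF. The FF_4OHT libraries, at 0.302 to 0.307, lay below all FF_EtOH libraries, at 0.399 to 0.653. The library labelled WT_4OHT C, at 0.530, lay within the FF_EtOH range, and the library labelled FF_EtOH C, at 0.399, was the lowest of its group.

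**Figure D3:**
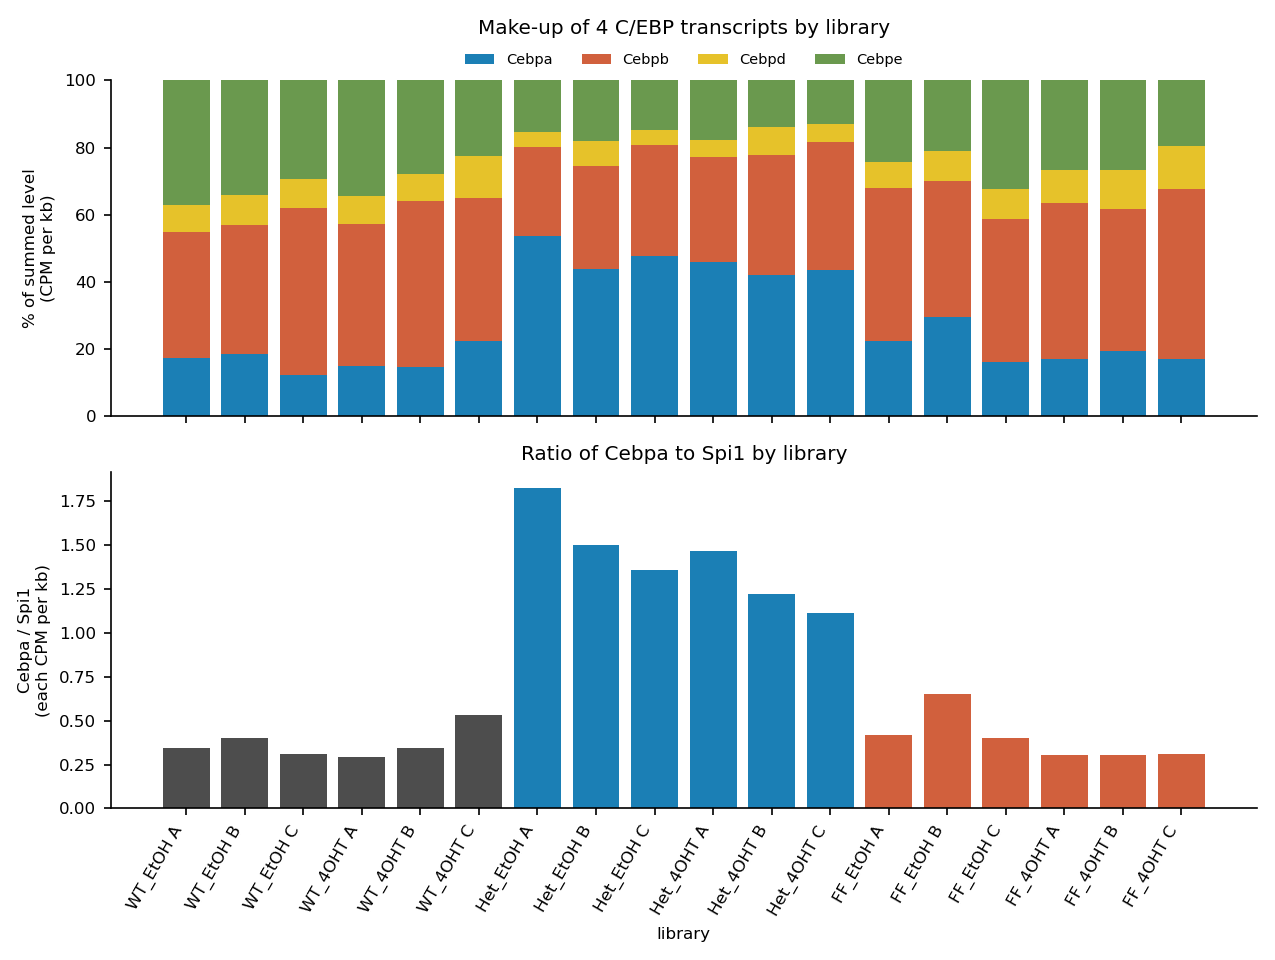
Upper panel: share (percent, vertical axis) of Cebpa, Cebpb, Cebpd and Cebpe in their summed CPM per kb in each library. Lower panel: ratio of Cebpa to Spi1, each in CPM per kb, in the same libraries (black WT, blue Het, red FF); Het libraries lie at 1.11 to 1.82 and all others at 0.293 to 0.653.

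Klf4 (chr4:55527143-55532466, minus strand) encodes a zinc finger factor of monocyte differentiation. In FF its libraries A, B and C were at 3.06, 3.94 and 3.76 CPM in ethanol and 9.27, 12.2 and 11.2 CPM in 4OHT. The groups did not overlap. Klf4 rose to 303% of its ethanol level (log2 1.60 ± 0.46, edgeR adjusted p = 0.0306). Without FF_EtOH C and WT_4OHT C the response was 1.63 (adjusted p = 0.00737). The call was lost in 5 of 18 fits that left out 1 library, each a library of FF: without FF_EtOH A, B or C (adjusted p = 0.0994, 0.0691 and 0.0716) and without FF_4OHT B or C (0.0888 and 0.0930). limma voom gave 1.59 with an adjusted p of 0.0565. The log2 value stayed between 1.49 and 1.70 in those 18 fits. In Het, Klf4 was at 2.19, 2.50 and 2.60 CPM in ethanol and 2.22, 6.13 and 3.08 CPM in 4OHT (log2 0.66 ± 0.46), and the groups overlapped. In WT it was at 7.35, 8.49 and 7.09 CPM in ethanol and 12.1, 10.7 and 2.18 CPM in 4OHT (log2 0.12 ± 0.44), where the library labelled WT_4OHT C lay far below the other WT libraries. Without FF_EtOH C and WT_4OHT C the WT response was log2 0.58, which did not pass. The FF response was not shown to differ from that of the other lines: the difference was log2 1.48 ± 0.63 to WT (edgeR adjusted p = 0.272) and 0.94 ± 0.64 to Het (adjusted p = 0.510). Without FF_EtOH C and WT_4OHT C the difference to WT was 1.05 (edgeR adjusted p = 0.304).

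Between lines, Klf4 in Het_EtOH was 31.7% of the WT_EtOH mean (log2 -1.66 ± 0.46, edgeR adjusted p = 0.0150), a call lost without Het_EtOH A or Het_EtOH B (0.0567 and 0.0567). FF_EtOH also lay below WT_EtOH without overlap, at 3.59 ± 0.467 against 7.64 ± 0.741 CPM, but the difference of log2 -1.09 ± 0.45 did not pass over all genes (adjusted p = 0.851). FF_4OHT and WT_4OHT overlapped, at 10.9 ± 1.46 and 8.33 ± 5.37 CPM (log2 0.39 ± 0.44, edgeR adjusted p = 0.615). In 4OHT, FF stood above Het by log2 1.51 ± 0.45 (edgeR adjusted p = 0.0212), which was lost without FF_4OHT B, FF_4OHT C, Het_4OHT A or Het_4OHT C (adjusted p = 0.0560 to 0.0720). Het against WT in 4OHT was -1.12 ± 0.45 (adjusted p = 0.111), -1.58 without WT_4OHT C (adjusted p = 0.00169) and -1.66 without Het_4OHT B (0.0338). Klf4 is the least abundant member, and 1 count corresponds to between 0.0203 and 0.0404 CPM.

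Irf8 (chr8:120736358-120756694, plus strand) encodes the interferon regulatory factor that specifies monocytes and dendritic cells. Its libraries A, B and C in FF were at 66.1, 70.1 and 78.0 CPM in ethanol and 83.4, 94.8 and 95.7 CPM in 4OHT. The groups did not overlap, but the response of log2 0.35 ± 0.15 did not pass over all genes (edgeR adjusted p = 0.140). It passed in a fit to the FF groups alone (log2 0.38, adjusted p = 0.0386) and without FF_EtOH C, WT_4OHT C and Het_4OHT A (0.43, adjusted p = 0.0307). It did not pass without FF_EtOH C and WT_4OHT C (0.42, adjusted p = 0.0682), nor without WT_EtOH C as well (0.0794). In Het the libraries were at 77.8, 103 and 106 CPM in ethanol and 106, 132 and 117 CPM in 4OHT (log2 0.31 ± 0.15). In WT they were at 88.8, 91.1 and 98.1 CPM and 103, 106 and 70.2 CPM (log2 0.01 ± 0.15). The Het groups did not overlap either, though only narrowly (105.5 against 105.6 CPM), which held for 4.95% of all genes in Het. The FF response exceeded that of Het by log2 0.05 ± 0.22 (edgeR adjusted p = 0.951) and that of WT by 0.35 ± 0.22 (0.472), and neither passed. Unlike Spi1 and 3 C/EBP genes, Irf8 was not called lower in Het than in WT: the log2 difference was 0.04 ± 0.15 in ethanol and 0.35 ± 0.15 in 4OHT. The difference of FF from Het in ethanol was log2 -0.42 ± 0.15, which missed the threshold (edgeR adjusted p = 0.0757) and passed without FF_EtOH C and WT_4OHT C (-0.49, adjusted p = 0.0315), without WT_4OHT C or Het_EtOH A alone (0.0305 and 0.0335), with scaling by library size (0.0301) and with the replicate block within Het (0.0486). The p-value with the block can be too small, as the block leaves out the spread between Het letters.

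Gfi1 (chr5:107716657-107726036, minus strand) encodes the repressor that favours granulocytes over monocytes. Its libraries A, B and C in FF were at 308, 311 and 319 CPM in ethanol and 340.4, 371 and 336 CPM in 4OHT. They did not overlap, and the response was log2 0.16 ± 0.19 (edgeR adjusted p = 0.636). Gfi1 was at 302, 217 and 200.2 CPM in Het_EtOH and 305, 218 and 184 CPM in Het_4OHT, with library A highest in both. With that pairing of the Het letters as a block, Het was lower than WT in ethanol (log2 -0.47, edgeR adjusted p = 0.0155) and in 4OHT (-0.45, adjusted p = 0.0272). That block takes the spread between Het letters out of the error, so p-values for comparisons between lines can come out too small. Without the block the differences were -0.44 ± 0.19 (adjusted p = 0.108) and -0.41 ± 0.19 (adjusted p = 0.171), and each passed without Het_4OHT A (0.0471 and 0.0212). FF exceeded Het in 4OHT by log2 0.57 ± 0.19 (adjusted p = 0.0354), a call that was lost without any of FF_4OHT A, B or C, Het_4OHT B or Het_4OHT C (adjusted p = 0.0562 to 0.138) and with scaling by library size (0.0534). WT libraries ranged from 268 to 384 CPM.

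Runx1 (chr16:92601466-92826149, minus strand) encodes the DNA-binding subunit of core binding factor. It ranged from 43.4 to 85.0 CPM over all libraries, and the groups overlapped in each comparison. FF_EtOH A, at 85.0 CPM, stood above the rest. The log2 responses to 4OHT were -0.12 ± 0.20 in FF, 0.17 ± 0.20 in Het and 0.01 ± 0.20 in WT. Het against WT was -0.04 ± 0.20 in ethanol and 0.12 ± 0.20 in 4OHT. No comparison called Runx1, in the main test or in any alternative.

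Partner, lineage and target genes of these factors were followed in 8 lists that were put together from general knowledge with earlier results of these data known. In the FF response, 13.4% of all tested genes were called, 663 higher and 1066 lower. Monocyte effector genes had 5 of 12 tested members higher and 0 lower, with a median log2 change of 1.94 against -0.02 over all genes. Lyz2, the lysozyme of phagocytes, went from 229 ± 45.5 to 1175 ± 188 CPM (log2 2.36 ± 0.32, edgeR adjusted p = 0.000325). Ctss, a lysosomal protease, rose by log2 1.97 ± 0.36 (adjusted p = 0.00224), Mpeg1, a pore-forming protein of macrophages, by 2.03 ± 0.39 (0.00330), and Cybb, a subunit of the phagocyte oxidase, by 1.96 ± 0.41 (0.00539). The other called gene was Vcan (2.48 ± 0.60), which like Cd14 below was named after its values were seen. Myeloid receptors had 5 of 14 higher and 0 lower, among them Tlr2, a receptor for bacterial lipoproteins (log2 1.51 ± 0.21, adjusted p = 0.000407), and Csf1r, the receptor for macrophage growth factor (1.57 ± 0.33, 0.00593). Csf2rb, the shared chain of the IL-3 receptor, rose by 0.71 ± 0.15 and Il6ra by 0.80 ± 0.18. Cd14 was the remaining called receptor (0.71 ± 0.23). Without FF_EtOH C and WT_4OHT C, where 12% of all genes were called, the effector list had 4 and the receptor list 5 genes higher.

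The counts that follow stand against 13.4% of all tested genes called in the FF response (663 higher and 1066 lower). Of 22 tested monocyte and dendritic cell factors, 2 were higher and 0 lower: Irf5, a factor of inflammatory macrophages (log2 0.99 ± 0.28, edgeR adjusted p = 0.0310), and Bcl6 (1.94 ± 0.39, 0.353 CPM in ethanol and 1.37 CPM in 4OHT, named after its values were seen). Of 16 partners and relatives of the members, 1 was higher, Rara, the retinoic acid receptor (0.84 ± 0.26, adjusted p = 0.0421), and it did not pass without FF_EtOH C and WT_4OHT C (0.68, adjusted p = 0.0885). Of 11 progenitor and other lineage factors, 2 were lower, Myc (-0.61 ± 0.18, 0.0346) and Myb (-0.33 ± 0.10, 0.0453), and without those libraries Myb did not pass (-0.29, adjusted p = 0.145). Primary granule genes had 1 of 5 lower, Mpo, myeloperoxidase (log2 -2.02 ± 0.60, adjusted p = 0.0346). Its libraries A, B and C were at 1593.5, 600.5 and 2180.5 CPM in FF_EtOH and 548, 324 and 205 CPM in FF_4OHT. The highest of them, FF_EtOH C, is the library that lay with WT, and the Mpo change without it is not given here. Secondary granule genes had 1 of 11 higher, Mmp8, a neutrophil collagenase (2.63 ± 0.50, 0.00311). Of 8 genes known to be repressed by GFI1, 0 passed, and the most abundant were Hoxa9 (-0.26 ± 0.22) and Meis1 (-0.02 ± 0.17), which are also MLL-AF9 targets. Without FF_EtOH C, WT_4OHT C and Het_4OHT A, where the share of all genes called rose to 21.5%, 4 of 5 primary granule genes were lower, 2 of 11 secondary granule genes were higher, and the partners had 0 higher and 2 lower. In the Het and WT responses, 0 genes of these 8 lists passed.

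Between Het and WT in ethanol, where Cebpe was lower, 8 of 11 secondary granule genes were lower and 0 were higher, with a median log2 difference of -2.66 against -0.03 over all genes. The count was also 8 without FF_EtOH C, WT_4OHT C and WT_EtOH C. The most abundant of them in WT, chosen for naming after their values were seen, were S100a9, at 446 CPM in WT and 56.4 CPM in Het (log2 -2.98 ± 0.57, edgeR adjusted p = 0.00117), S100a8 (-2.60 ± 0.59), Ngp (-1.50 ± 0.39) and Chil3 (-4.98 ± 1.08). Camp, the cathelicidin gene, had the largest difference, at 91.8 CPM in WT and 0.969 CPM in Het. The exceptions were Mmp8, Lcn2 and Cd177, at log2 -0.30 ± 0.48, 0.27 ± 0.40 and 0.48 ± 0.44. Of 5 primary granule genes, 3 were lower in Het, among them Mpo, at 3337 ± 776 CPM in WT and 117 ± 22.4 CPM in Het. Myeloid receptors had 5 of 14 lower and 1 higher, with Csf3r, the receptor for granulocyte growth factor, at log2 -1.81 ± 0.25 (adjusted p = 8.9e-05). In this comparison 23.7% of all genes were called, 1714 higher and 1335 lower. Monocyte effector genes had 1 of 12 higher and 2 lower. The remaining lists had 1 higher and 2 lower of 22 monocyte factors, 3 and 2 of 16 partners, 3 and 1 of 11 progenitor factors, and 1 and 1 of 8 genes repressed by GFI1. In FF against Het in ethanol, which shares the Het libraries, 7 of 11 secondary granule genes were higher in FF and 0 lower, against 16.8% of all genes called. The stromal sum was also higher in Het, through Pdgfrb, and its part in the differences between Het and the other lines was not tested.

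**Figure D4:**
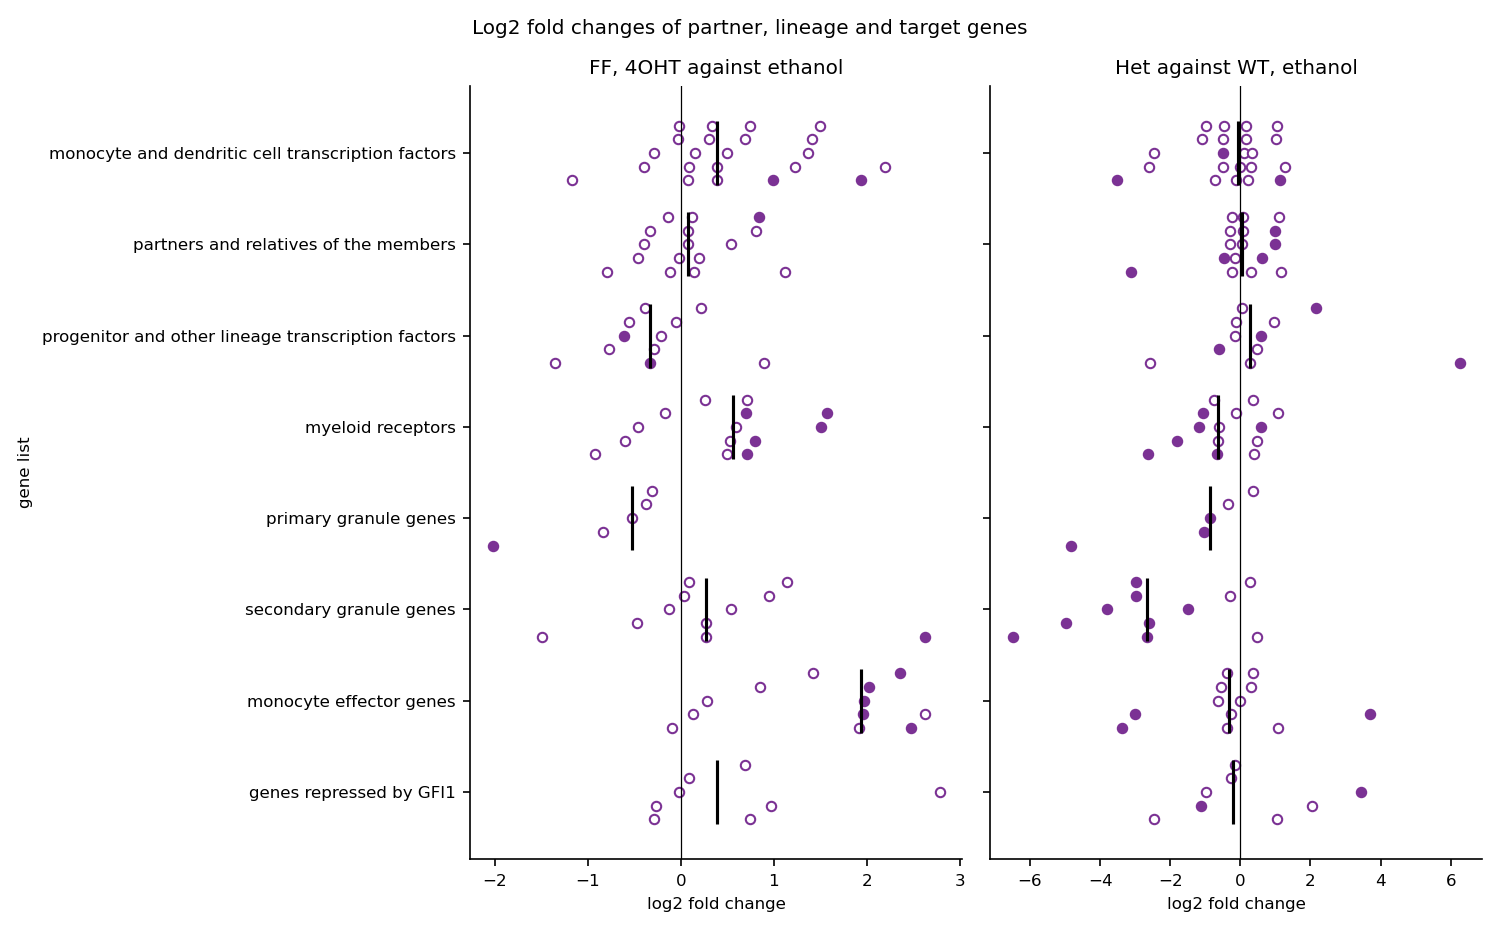
Log2 fold change (horizontal axis) of each tested gene of 8 lists (vertical axis, points spread for legibility) in the FF response to 4OHT and in Het against WT in ethanol. Filled points passed an adjusted p of 0.05 in edgeR and black bars are list medians; monocyte effector genes have a median of 1.94 in the first panel and secondary granule genes -2.66 in the second.

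The genes whose level followed each member most closely were sought among 8503 tested genes with at least 10 CPM, by Pearson's r over the 18 libraries in log2 CPM. These correlations describe libraries that share lines, depth and base composition. Spi1 was followed by Sipa1 (0.98) and Cotl1 (0.98), Cebpe by Ncf4 (0.98) and Neu1 (0.96), and Cebpa by Pla2g12a (0.96) and Clybl (0.96). Cebpd was followed by Ptpn6 (0.95) and Zbtb7b (0.95), and Cebpb by Arhgap9 (0.94) and Tbkbp1 (0.92). Klf4 was followed by Ctsc (0.95) and Ms4a6d (0.90), Gfi1 by Tm2d2 (0.90) and Rgs19 (0.89), Irf8 by Lpxn (0.85) and Plxnb2 (0.84), and Runx1 by Klf6 (0.75) and R3hdm1 (0.74). Within the 6 libraries of a line, r ranged from 0.87 to 0.99 for Klf4 with Ctsc and from 0.89 to 0.98 for Spi1 with Cotl1, while for Gfi1 with Rgs19 it was 0.23 in FF.

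The counting did not name a strand setting, so reads of overlapping genes cannot be told apart. By GENCODE, opposite-strand genes shared 562 exon bases with Cebpd (Spidr), 312 with Cebpb (Tmem189), 106 with Runx1 (Gm26626), 101 with Gfi1 (A430072P03Rik) and 51 with Cebpa (Gm45091), while Spi1, Cebpe and Klf4 had no overlapping gene. Irf8 lies within the read-through model Gm20388, with which it shared 0 exon bases.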

How the data were processed

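Total RNA was sequenced in 18 libraries, and 1 table of read counts per gene was used, as deposited. The authors made these counts with HISAT2 2.0.5 and featureCounts 1.5.2 on mm10, per the submitters' processing notes; for the annotation, strand setting and multi-mapping reads, the setting was not given in the sources used here. Library totals of 24730213 to 49277884 counts set the precision, and no 2 of the 18 libraries held identical counts. Groups were taken from the sample titles.

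Counts were tested in R 4.3.3 with edgeR 4.0.16 (TMM scaling, minimum count of 10, robust quasi-likelihood F test, 1 fit of all 18 libraries) and Benjamini-Hochberg adjustment over 12859 genes at 0.05. The test was checked on simulated data. Alternatives used DESeq2 1.42.0, limma 3.58.1 (voom), other scalings and filters, a replicate block, the compared groups alone, and fits without 1, 2 or 3 libraries. The line comparisons in 4OHT and the block within Het were added after seeing the data. That block leaves the spread between Het letters out of the error, so its p-values for comparisons between lines can be too small.

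The 9 members and all lists were chosen with earlier results of these data known. Named genes were all members, Ddx41, and from each list up to 4 genes called in the FF response that averaged at least 1 CPM, taken by smallest adjusted p, or the 2 most abundant where none was called. For likeness, the 2 genes of highest r were named, from log2 CPM with a prior count of 2. Same-letter libraries deviated together in Het (r = 0.48, 0.70 and 0.40) but not in every pair of WT (0.39, -0.02 and 0.25) or FF (0.17, 0.18 and 0.07), so letters were treated as pairs in Het alone. Gene models are GENCODE on GRCm38, and upstream sequences are RefSeq on GRCm38.p6.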

Additional observations from a re-analysis of the deposited data

Results flagged for a closer look

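The response to 4OHT differed between lines, by the test of the interaction itself, for 3 genes of the lists and for 0 of the 9 transcription factors. For FF minus WT these were 1 of 14 myeloid receptors and 1 of 12 monocyte effector genes, against 2.3% of all tested genes. For FF minus Het they were 2 of 12 monocyte effector genes, against 2.5%. All other lists had 0 called, and the lists were chosen with earlier results of these data known. Lyz2 rose more in FF than in WT, by log2 1.93 (edgeR adjusted p = 0.0308), and more than in Het, by 1.74 (adjusted p = 0.0437). Without FF_EtOH C and WT_4OHT C these were 1.71 (adjusted p = 0.125) and 1.61 (adjusted p = 0.0855). Lyz1, named after its values were seen, differed between FF and Het by log2 7.19 (edgeR adjusted p = 0.0297), with means of 24.4 and 151 CPM in FF_EtOH and FF_4OHT and of 3.05 and 0.120 CPM in Het. Its difference was 7.16 without FF_EtOH C and WT_4OHT C (adjusted p = 0.0481), and did not pass without WT_EtOH C as well (0.0611) or Het_4OHT A as well (0.0702). Lyz1 and Lyz2 are near-identical copies, and the counting could split their reads. Tlr2 rose more in FF than in WT by log2 1.39 (edgeR adjusted p = 0.0236), and by 1.17 without those libraries (adjusted p = 0.0566). Without Het_4OHT A as well, the Tlr2 difference was again 1.17 with an adjusted p of 0.00945.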

How the results depend on the processing

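Of 3240 values of the members under alternatives, 3130 kept their side of the threshold, 67 calls were lost, 43 were gained and 0 called values changed sign. Most of these values belong to results not called in the main test, so 3130 does not measure how stable the calls were. Of the values uncalled in both, 179 had the other sign. In the FF response the count of members called went from 1 to 2 with the replicate block within Het and in the compared groups alone, to 0 with limma voom, and to 3 without FF_EtOH C, WT_4OHT C and Het_4OHT A. All genes called went with it from 1729 to 2300, 1984, 1570 and 2798 (21.5%). Leaving out 1 library gave 0 to 2 members and 700 to 2661 genes. Without those 3 libraries FF against WT gave 2 members in ethanol and 1 in 4OHT, against 7.55% and 24.8% of all genes. FF against Het in ethanol gave 2 members without FF_EtOH C and WT_4OHT C, against 15.7% of all genes, and 3 without WT_EtOH C as well, against 16.1%. Leaving out 1 library gave 1 to 6 members and 1332 to 2908 genes there. In 4OHT the compared groups alone gave 1 for Het against WT and 3 for FF against Het, with 619 and 2238 of all genes called. FF against Het in 4OHT gave 2 to 6 members and 2576 to 3922 genes without 1 library. Fits with fewer libraries had fewer degrees of freedom, and otherwise the cause was not tested.

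With the letters as a replicate block over all lines the counts were 1 in the FF response, 6 and 5 for Het against WT and FF against Het in ethanol, and 4 and 5 in 4OHT, as without the block. With the pairing within Het the member counts were 2, 7, 7, 5 and 6. In the same order, all genes called were 1729, 3049, 2158, 1989 and 3588 without a block. They were 1715, 3040, 2148, 1992 and 3579 with the block over all lines. With the pairing within Het they rose to 2300, 3634, 2611, 2492 and 4332. That pairing takes the spread between Het letters out of the error, so its counts for comparisons between lines can be too high. Scaling by library size moved the median of all genes by 0.13 for Het against WT in ethanol and by -0.12 for FF against Het. Over all genes, FF minus Het gave 321 genes, 732 by DESeq2 and 57 in the compared groups alone. FF minus WT gave 296, 643 by DESeq2, 118 (0.905%) without FF_EtOH C and WT_4OHT C, 72 without WT_EtOH C as well, and 83 to 626 without 1 library. With 3 libraries a group, differences that missed the threshold are not shown to be absent.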
